A study of Mus musculus with 6 samples.

Results

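The genes described here encode reelin with its receptors and adaptor, and the ligands and receptors of axon guidance. They were the 72 genes named Reln, Dab1, Vldlr or Lrp8 or belonging by name to the semaphorin, plexin, neuropilin, ephrin, Eph receptor, slit, Robo, netrin and Unc5 families, of 50348 gene names in all. They were chosen by name, not by level. RNA was measured in 6 libraries from mouse pituitary glands, 1 library per group. The sorted groups were fluorescent cells of Lhbcre glands at 7 weeks (7 glands pooled), of Tshbcre glands at 7 weeks (42 glands), of Ghcre glands at 7 weeks (12 glands) and of Tshbcre glands at postnatal day 7, or P7 (5 glands). Each of these carried a Cre transgene named for a hormone gene (Lhb, luteinizing hormone beta; Tshb, thyrotropin beta; Gh, growth hormone) and a YFP reporter at the ROSA locus that Cre switches on. Such a reporter marks cells with a history of Cre activity, not only cells that transcribe the driver at harvest. The nontransgenic groups were 1 whole gland at 7 weeks and 8 pooled whole glands at P7, and the labels' protocol text is the same for sorted and whole-gland samples. With 1 library per group there was no spread between animals and no test, and differences are given as descriptions of these libraries.

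Reelin is a large secreted glycoprotein that binds the lipoprotein receptors VLDLR and ApoER2 (the product of Lrp8) and acts in the cell through the adaptor DAB1; it is best known for positioning neurons in the developing brain. Semaphorins signal through plexins with neuropilins as co-receptors, ephrins through Eph receptors, slits through Robo receptors, and netrins through DCC and the Unc5 receptors. These families were named for steering axons, and they also act outside the nervous system: EPHB4 with ephrin-B2, PLXND1, ROBO4 and NRP1 are known from blood vessels, and the pituitary is a densely vascular gland.

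Levels are given as scaled FPKM, FPKM being the authors' fragment numbers per transcript length and per library total, summed over the annotated transcripts of a gene and divided by 1 factor per library. The factors ranged between 0.758 and 1.42. Relative depth, read from the ratio of coverage to FPKM in each file, was 2.23 in Lhbcre, 1.16 in adult Tshbcre, 2.73 in Ghcre, 1.15 in P7 Tshbcre and 1.21 in the P7 whole gland, with the adult whole gland at 1. The Ghcre table ended within chromosome 5 and listed 48 of the 72 genes, so the other 24 were not measured there. The lineage markers matched the labels in part. Nr5a1, which marks gonadotropes, stood at 55.5 in Lhbcre, 26.0 in adult Tshbcre and 5.08 in the adult whole gland. With the assembled transcripts described below added, it stood at 55.5 in Lhbcre and 55.7 in adult Tshbcre. Of 9 gonadotrope markers, 1 (Nr5a1) was 2-fold higher in Lhbcre than in adult Tshbcre. The 3 that were 2-fold lower held Fshb, at 216 against 928. Lhb stood at 2198 in Lhbcre against 2904 in adult Tshbcre, and Tshb at 9.05 against 1075. The Tshbcre cells thus cannot be taken as thyrotropes alone, nor Lhbcre as the only library rich in gonadotrope RNA. Lhb is not listed for Ghcre, Gh not for Ghcre, Lhbcre or the adult whole gland, and Prl not for Ghcre or Lhbcre. Of 5 somatotrope markers listed in Ghcre and the adult whole gland, 1 was 2-fold higher in Ghcre, Neurod4, at 15.8 against 5.07. Foxo1 was the 1 that was 2-fold lower, at 1.46 against 10.5, but stood at 11.2 against 10.5 with assembled transcripts. The libraries also differed in sex markers: Xist, the RNA of the inactive X chromosome, stood at 29.4 in Lhbcre, 0.11 in adult Tshbcre, 62.6 in P7 Tshbcre, 0.060 in the adult whole and 17.0 in the P7 whole gland. Ddx3y, a gene of the Y chromosome, stood at 0.012 in Lhbcre, 3.20 in adult Tshbcre, 2.09 in P7 Tshbcre, 2.61 in the adult whole and 2.12 in the P7 whole gland. Neither gene is listed for Ghcre. Where Lhbcre is set against the adult whole gland or adult Tshbcre, including for Reln, a difference by sex and one by sorted cells cannot be told apart. Xist also differed between the ages, in whole glands and in Tshbcre cells. There a difference by sex and one by age cannot be told apart. The part of sex in the differences below was not tested.

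Of the 72 genes, 62 reached 1 scaled FPKM in at least 1 library, 22 reached 5, and 10 stayed under 1 in every library that listed them. Lhbcre held 40 genes at 1 or more, adult Tshbcre 36, Ghcre 16 of the 48 listed, P7 Tshbcre 36, the adult whole gland 47 and the P7 whole gland 54. Plexins were the family with the highest summed level in each of the 5 full tables, at 50.4 in Lhbcre, 62.2 in adult Tshbcre, 42.1 in P7 Tshbcre, 77.2 in the adult whole and 64.5 in the P7 whole gland. Only Plxnb1 and Plxnb2 stood at 5 or more in every library that listed them. A gene listed at 0 was not taken as absent, because some files assigned reads of a locus to transcripts assembled without a name. Such assembled transcripts, where 200 nt or longer, were added to their gene in a second set of values, which is quoted for changed calls and not beside every value. For some genes none were added, as for Epha6 and Nrp1 in every library that listed them. An unchanged call of such a gene is no further check.

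**Figure D1:**
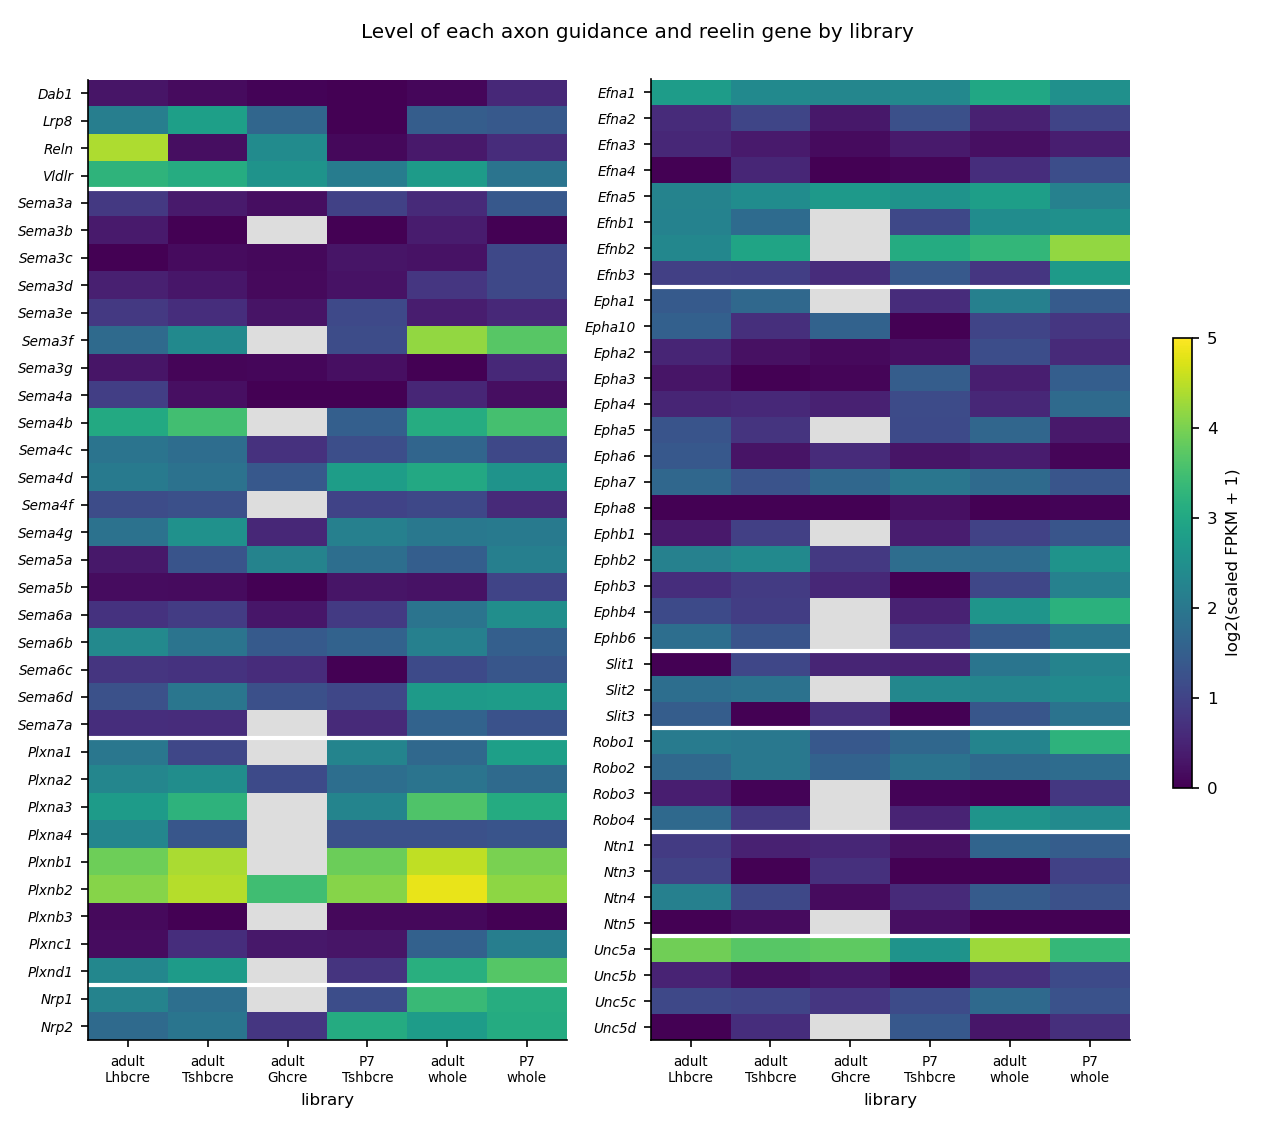
Levels of the 72 genes, as log2(scaled FPKM + 1), by library (columns) and gene (rows), with white lines between families and grey where the Ghcre table does not list a gene. Plxnb1, Plxnb2 and Unc5a are bright across the libraries, and Reln is bright in Lhbcre (19.9 scaled FPKM) and Ghcre (4.31) and dark in the others.

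Reln was the member with the widest contrast. It stood at 19.9 scaled FPKM in Lhbcre, 0.139 in adult Tshbcre, 4.31 in Ghcre, 0.0812 in P7 Tshbcre, 0.262 in the adult whole and 0.549 in the P7 whole gland. The deposited bounds, which cover read counting and assignment within a library only, were 19.0 to 20.8 in Lhbcre, 4.04 to 4.58 in Ghcre and 0.192 to 0.332 in the adult whole gland, and none of these ranges overlapped. Reln thus ranked 1 among the 72 genes in Lhbcre and 5 among the 48 listed in Ghcre, and between 59 and 61 in the other libraries. Relative to the adult whole gland it was 16.6-fold higher in Lhbcre (log2 difference 4.05) and 4.21-fold higher in Ghcre (2.07), on the scale of log2(scaled FPKM + 1). It was 18.4-fold higher in Lhbcre than in adult Tshbcre (4.20), although both libraries held gonadotrope genes. These comparisons share libraries and are not independent of each other. In bulk RNA, more cells that express a gene and more RNA per cell cannot be told apart.

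The gene lies at chr5:22089452-22549703 (mm39) and has 2 annotated transcripts in the files, of 11702 and 11696 bases. They differ by an exon of 6 bases, exon 64 of 65 in the longer form, at chr5:21891562-21891567 of the older build GRCm38 on the minus strand; this exon has been described in reelin transcripts of neurons in mouse brain. The coding sequence on both sides is shown, with the 6 bases in capitals and 45 bases of its neighbours on each side, because it is all that tells the isoforms apart.
Reln with the 6-base exon: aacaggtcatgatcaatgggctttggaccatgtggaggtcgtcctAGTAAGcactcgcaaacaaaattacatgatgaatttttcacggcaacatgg
Reln without the 6-base exon: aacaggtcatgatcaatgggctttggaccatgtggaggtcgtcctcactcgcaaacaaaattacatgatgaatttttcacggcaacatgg
The form with the exon made up 44.0% of Reln FPKM in Lhbcre, with 8.77 scaled FPKM (8.35 to 9.19) against 11.1 (10.6 to 11.7) for the form without it. In Ghcre its share was 29.0%, with 1.25 (1.16 to 1.35) against 3.06 (2.89 to 3.23). The form without the exon had the higher estimate in both libraries where Reln was high. The shares of 33.3% in the adult whole and 19.7% in the P7 whole gland rest on the low levels of Reln there. In adult and P7 Tshbcre the share was the same, 49.9478%, although their Reln levels differed, and it is not read as a measured split. Only reads across these 6 bases separate the forms, and the submitters' processing notes name Bowtie2 and no spliced aligner, so how such reads were mapped is not known here. The shares are therefore the output of the authors' assignment, and their bounds do not cover its error.

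The 250 bases before the Reln start (RefSeq, build GRCm38.p6, chr5:22344706-22344955, minus strand) are shown because Reln differed so widely between libraries; capitals mark matches to the GC box letters GGGCGG, the E-box letters CACGTG and the ETS core letters CCGGAA, on either strand.
Reln: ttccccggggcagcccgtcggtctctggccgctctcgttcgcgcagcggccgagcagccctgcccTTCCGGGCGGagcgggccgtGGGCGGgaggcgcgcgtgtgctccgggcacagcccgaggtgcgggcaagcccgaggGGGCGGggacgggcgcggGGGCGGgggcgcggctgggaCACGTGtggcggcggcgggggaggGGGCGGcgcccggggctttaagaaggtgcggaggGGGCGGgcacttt
This window was 80% G and C and held 37 CpG, beside medians of 52.4% and 6 over 32851 RefSeq promoter windows of the same length. It held 6 matches to GGGCGG, the GC box letters, which 32.7% of all windows hold at least once. It held 1 match to the E-box letters CACGTG, found in 6.02% of windows, and 1 to the ETS core CCGGAA, found in 12%, the last overlapping a GC box by 2 letters. A match is a description of the letters and not a bound site.

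Of the reelin receptors, Vldlr stood at 8.48 in Lhbcre, 7.60 in adult Tshbcre, 4.93 in Ghcre, 3.27 in P7 Tshbcre, 5.66 in the adult whole and 2.81 in the P7 whole gland. It was present at several FPKM in every library, and no comparison set it 4-fold apart. With assembled transcripts added it stood at 25.6 in Lhbcre, 10.5 in Ghcre and 7.64 in P7 Tshbcre, and was the same in the other libraries. Lrp8 stood at 3.42 in Lhbcre, 6.09 in adult Tshbcre, 2.14 in Ghcre, 1.80 in the adult whole and 1.62 in the P7 whole gland, and was listed at 0 in P7 Tshbcre. With assembled transcripts added, Lrp8 stood at 5.16 in Lhbcre, 9.21 in adult Tshbcre, 6.96 in Ghcre, 19.2 in P7 Tshbcre, 3.52 in the adult whole and 4.03 in the P7 whole gland. Dab1, the adaptor, was at most 0.499, in the P7 whole gland, and reached 1.92 in P7 Tshbcre and 1.56 in the P7 whole gland with assembled transcripts. With assembled transcripts Dab1 stood at 0.854 in Ghcre and 0.209 in Lhbcre. Every library, with high Reln or low, thus held Vldlr RNA and little annotated Dab1 RNA.

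**Figure D2:**
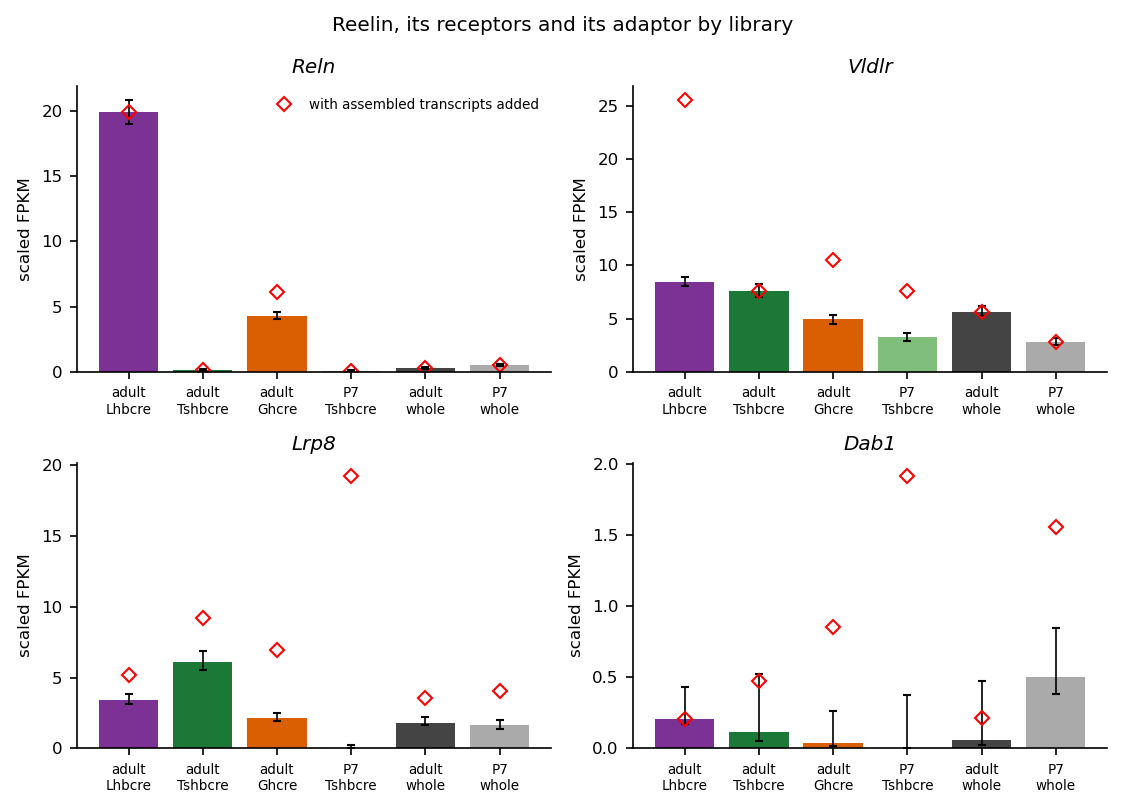
Scaled FPKM (vertical axes, each on its own scale) of Reln, its receptors Vldlr and Lrp8 and its adaptor Dab1 in the 6 libraries. Bars are annotated transcripts, whiskers the summed deposited bounds and red diamonds the level with assembled transcripts added. Reln stands out in Lhbcre at 19.9 and Ghcre at 4.31, and the Lrp8 diamond in P7 Tshbcre stands at 19.2 over a bar of 0.

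Cells sorted from adult Lhbcre glands were set against the adult whole gland. A gene was counted apart where its libraries differed by 4-fold or more and the higher reached 1 scaled FPKM. Of the 49 genes at that floor, Reln was higher and Sema3f lower, beside 9.31% of the 16452 genes compared. Sema3f, a secreted class 3 semaphorin that binds neuropilin-2, stood at 2.31 in Lhbcre against 17.2 in the adult whole gland, 5.52-fold lower. At a 2-fold threshold, added with these values known, 3 genes were higher, beside 13.6% of all genes, and 9 lower, beside 15.3%. The share of the 49 genes that was 2-fold lower, 18.4%, was close to that background. The median log2 difference of the 49 was -0.35, beside 0.0044 over all genes. With each library scaled to the same annotated total the medians were 0.099 and 0.38. The sign of the member median thus depends on the scaling, while it lay under the median of all genes in both.

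Among the named genes 2-fold lower in Lhbcre, both neuropilins were present: Nrp1, co-receptor for class 3 semaphorins and VEGF, stood at 3.69 against 9.53, and Nrp2 at 2.31 against 5.82 in the adult whole gland. Ephb4, the receptor of ephrin-B2, stood at 1.18 in Lhbcre against 5.12, and Sema6d, a transmembrane semaphorin, at 1.37 against 5.61. The endothelial markers moved with them: their sum over 12 genes was 46.4 in Lhbcre against 156 in the adult whole gland, 9 of the 12 were 2-fold lower and none was at 0. So did the mesenchymal and pericyte markers (11 genes, sum 31.4 against 142), the immune markers (10 genes, 12.9 against 84.1) and the stem and folliculostellate markers (13 genes, 36.1 against 159). Markers of other hormone cells also fell, as the 7 corticotrope and melanotrope markers summed to 391 against 1606. Of these 7, 3 were 2-fold lower and 2 higher. The 10 posterior lobe and glia markers summed to 15.8 against 13.3. The part of these cell types in the differences was not tested. Epha6 and Plxna4, named after their values were seen, were 2-fold higher. Epha6, an Eph receptor whose locus overlaps Gm4660, stood at 1.61 in Lhbcre against 0.298, with 0.194 in adult Tshbcre. Plxna4 stood at 3.89 against 1.35 on annotated transcripts, and at 3.89 against 2.55 with assembled ones. With assembled transcripts 4 genes were 2-fold higher and 13 lower, of which 2 and 6 were so on annotated transcripts too.

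**Figure D3:**
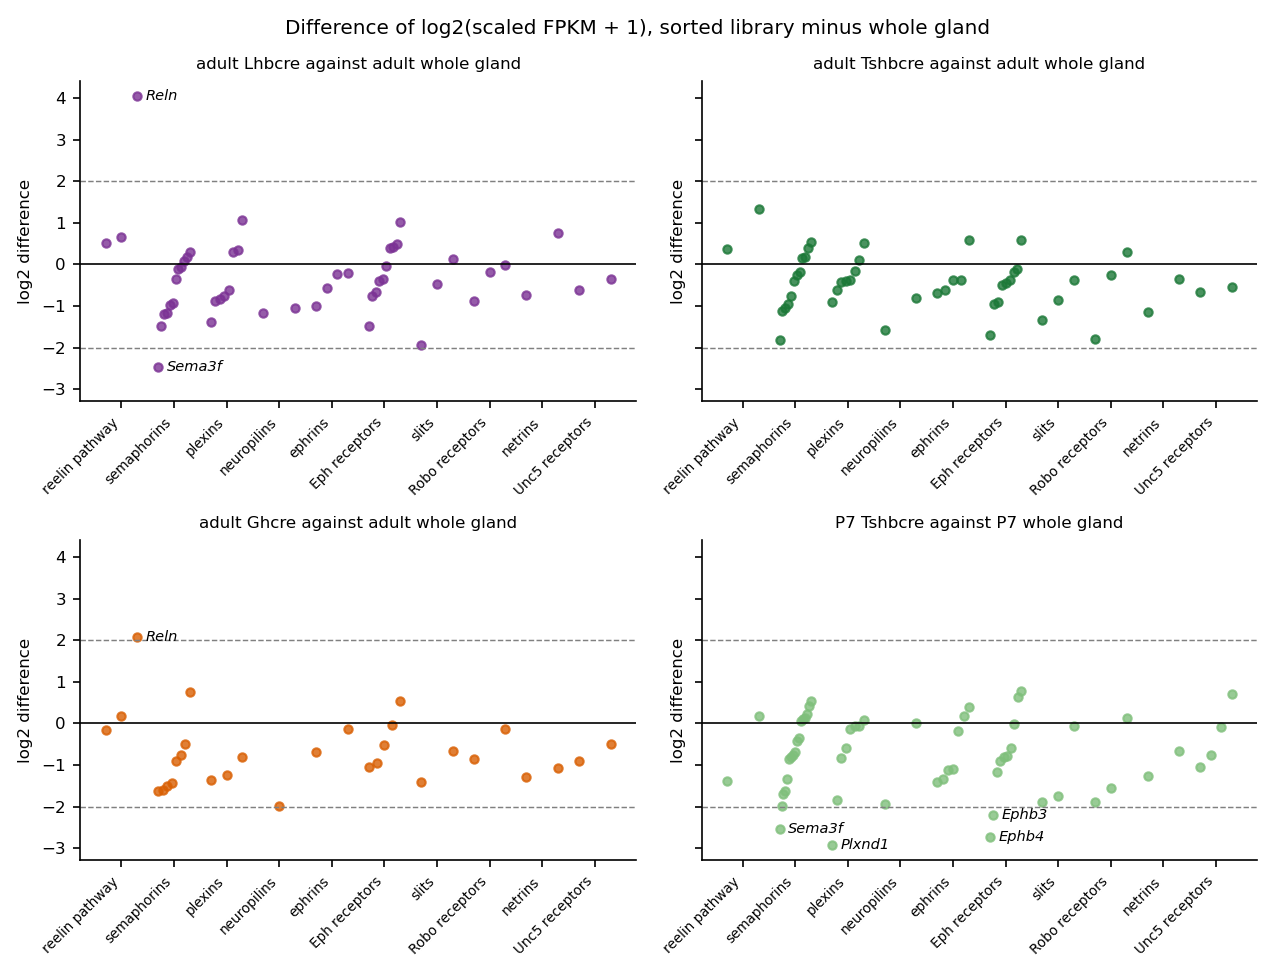
Difference of log2(scaled FPKM + 1), sorted library minus whole gland of the same age (vertical axis), for genes at 1 scaled FPKM or more in either library, by family (horizontal axis); each point is a gene and dashed lines mark 4-fold. Labelled genes are those 4-fold apart: Reln at 4.05 and Sema3f at -2.46 for Lhbcre, Reln at 2.07 for Ghcre, and Sema3f, Plxnd1, Ephb3 and Ephb4 below the lower line for P7 Tshbcre.

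Adult Tshbcre cells were compared with the same adult whole gland. None of 48 genes was 4-fold apart, beside 7.06% of the 15797 genes compared; with 1 library per group no p-value exists, and at the 2-fold threshold 1 gene was higher, beside 9.14% of all genes, and 8 lower, beside 11.4%. The higher gene was Lrp8, at 6.09 in adult Tshbcre against 1.80, 2.54-fold. Sema3f stood at 4.21 in adult Tshbcre against 17.2, 3.50-fold lower, and at 6.01 with assembled transcripts. The named receptors that were 2-fold lower were Robo4, an endothelial member of the Robo family, at 0.748 against 5.03, Ephb4 at 0.879 against 5.12, and Nrp1 at 2.54 against 9.53. Plxnd1, the receptor of Sema3e, did not follow them and stood at 5.68 against 7.92. The endothelial sum was 22.0 in adult Tshbcre against 156, with 6 of 12 markers 4-fold lower and none at 0. The mesenchymal and pericyte sum was 31.1 against 142, with 6 of 11 markers 4-fold lower. The immune sum was 56.1 against 84.1, with 0 of 10 markers 2-fold lower. The stem and folliculostellate sum was 97.0 against 159, with 1 of the 10 markers at the floor 2-fold lower. The corticotrope and melanotrope sum was 328 against 1606, with 4 of 7 markers 2-fold lower and 2 higher. The posterior lobe and glia sum was 8.40 against 13.3. The part of these cell types was not tested. Sema4d, a plexin-B1 ligand, was 2-fold lower on annotated transcripts (2.70 against 7.07) but stood at 6.60 against 7.07 with assembled ones. With assembled transcripts 5 genes were 2-fold higher, Lrp8 among them, and 7 lower, among them Sema3f, Ephb4, Robo4 and Nrp1, to which none were added. The median of the 48 genes was -0.39, beside -0.018 over all genes.

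Ghcre cells were compared with the adult whole gland over 30 of the 48 listed genes. Reln alone was 4-fold apart, higher as given above, beside 9.8% of the 11286 genes compared. With FPKM as deposited its log2 difference was 1.73, under the threshold. A 2-fold difference was found for 11 genes that were lower, 36.7% of the 30 beside 15.5% of all genes, and for 1 that was higher, beside 12.7%. The lower genes held 4 of 8 semaphorins, 2 of 3 plexins and the 1 neuropilin listed. Nrp2 stood at 0.723 in Ghcre against 5.82, Sema6d at 1.33 against 5.61 and Plxnb2, a receptor of class 4 semaphorins, at 10.1 against 27.6. The median of the 30 genes was -0.83, beside 0.0028 over all genes. With each library scaled to the same annotated total the medians were 0.12 and 1.11, so the sign depends on the scaling while the genes lay under the median of all genes in both. The 7 endothelial markers listed summed to 2.21 in Ghcre against 57.3, with Cldn5 and Eng at 0. The 7 mesenchymal and pericyte markers listed summed to 5.12 against 61.6, the 8 immune markers to 4.84 against 73.1 and the 7 corticotrope and melanotrope markers to 39.5 against 1606. The part of these cell types was not tested. With assembled transcripts 2 genes were 2-fold higher, Reln among them at 6.09, and 10 lower, 9 of which were so on annotated transcripts too.

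P7 Tshbcre cells stood under the P7 whole gland in many guidance genes. Of 58 genes, 4 were lower by 4-fold and none higher. Beside them 9.38% of the 16370 genes compared were apart in either direction, 1001 lower and 534 higher, so the 4 did not exceed that share. At the 2-fold threshold 22 genes were lower, 37.9% of the 58 beside 16.1% of all genes, and none was higher, beside 11.7%. Of the 22, 19 were also 2-fold lower with assembled transcripts added, and Lrp8, Sema4b and Slit3 were not. Nrp1, among the 19, had none added. With assembled transcripts 4 genes were 2-fold higher, namely Lrp8 (19.2 in P7 Tshbcre against 4.03), Vldlr (7.64 against 2.81) and the Eph receptors Epha7 (8.06 against 3.44) and Epha10 (4.91 against 1.42), the last 2 named after their values were seen. At 4-fold with assembled transcripts Lrp8 was higher and 5 of 63 genes lower, beside 7.59% of all genes apart. The 5 were Sema3f, Plxnd1, Ephb4, Robo4 (0.412 against 5.68) and Epha2 (0.154 against 5.79). Epha2 was also named after its values were seen. The median of the 58 was -0.76, beside -0.0094 over all genes, and it was negative under each scaling tried.

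On annotated transcripts the genes that were 4-fold lower at P7 were 1 semaphorin, 1 plexin and 2 Eph receptors. Plxnd1 stood at 0.685 in P7 Tshbcre against 11.9 in the P7 whole gland, 7.64-fold lower, with bounds of 0.590 to 0.784 and 11.3 to 12.4. Ephb4 stood at 0.386 against 8.20, 6.64-fold lower, with bounds of 0.304 to 0.477 and 7.75 to 8.66. Plxnd1 and Ephb4 have 2 annotated transcripts each, and all of their FPKM was assigned to 1 of them. With assembled transcripts Plxnd1 stood at 0.950 in P7 Tshbcre. Sema3f stood at 1.23 in P7 Tshbcre against 12.0, 5.83-fold lower, and at 2.63 against 13.7 with assembled transcripts. Ephb3, an ephrin-B receptor, was listed at 0 in P7 Tshbcre against 3.58, and stood at 1.10 against 4.48 with assembled transcripts, which is under 4-fold.

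Further named genes were 2-fold lower in P7 Tshbcre on annotated transcripts. Robo4 stood at 0.412 against 4.23 in the P7 whole gland, Nrp1 at 1.28 against 7.69, and Robo1, a slit receptor of neurons and other cells, at 2.17 against 8.38. Ligands were among them: Efnb2, which encodes ephrin-B2, stood at 7.46 in P7 Tshbcre against 17.1, Efnb3 at 1.64 against 5.63 and Sema6d at 1.09 against 5.76. Sema4b lay just under the 4-fold limit (1.87 against 10.5), but with assembled transcripts it stood at 11.7 against 10.5. Not all vessel-related members were low, since Nrp2, the neuropilin of lymphatic vessels and of Sema3f signalling, stood at 7.48 in P7 Tshbcre against 7.41, and at 10.3 against 8.82 with assembled transcripts. The most abundant plexins also differed little, Plxnb1 at 13.6 against 15 and Plxnb2 at 16.1 against 16.9.

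All 12 endothelial markers were 4-fold lower in P7 Tshbcre, with a sum of 6.60 against 139 in the P7 whole gland, and Kdr and Tek at 0. The sum of 11 mesenchymal and pericyte markers was 13.8 against 320, and 10 of the 11 were 4-fold lower. The 10 immune markers summed to 4.32 against 38.3 and the 13 stem and folliculostellate markers to 14.7 against 79.8. The 7 corticotrope and melanotrope markers summed to 142 against 1467.5, with 5 of them 2-fold lower and 1 higher. The 10 posterior lobe and glia markers summed to 7.13 against 22.4. Over the 5 full tables the endothelial sum was 6.60 in P7 Tshbcre, 22.0 in adult Tshbcre, 46.4 in Lhbcre, 139 in the P7 whole gland and 156 in the adult whole gland. Robo4 had the same order, with 0.412 in P7 Tshbcre, 0.748 in adult Tshbcre, 2.26 in Lhbcre, 4.23 in the P7 whole gland and 5.03 in the adult whole gland. Nrp1 had it too, with 1.28 in P7 Tshbcre, 2.54 in adult Tshbcre, 3.69 in Lhbcre, 7.69 in the P7 whole gland and 9.53 in the adult whole gland. Ephb4 had it except that the adult whole gland (5.12) lay under the P7 whole gland (8.20). The mesenchymal and pericyte sum had the order of Ephb4, with 13.8 in P7 Tshbcre, 31.1 in adult Tshbcre, 31.4 in Lhbcre, 142 in the adult whole and 320 in the P7 whole gland. The order of the endothelial sum was not particular to it, since the sum of 7 corticotrope and melanotrope markers had it too. That sum was 142 in P7 Tshbcre, 328 in adult Tshbcre and 391 in Lhbcre. In the whole glands it was 1467.5 at P7 and 1606 in the adult. The immune and the stem and folliculostellate sums had other orders. Plxnd1 departed from both orders, with 5.68 in adult Tshbcre above 3.99 in Lhbcre. Efnb2 had another order, with 7.46 in P7 Tshbcre above 6.57 in adult Tshbcre and 3.94 in Lhbcre. The part of any of these cell types in these levels was not tested.

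**Figure D4:**
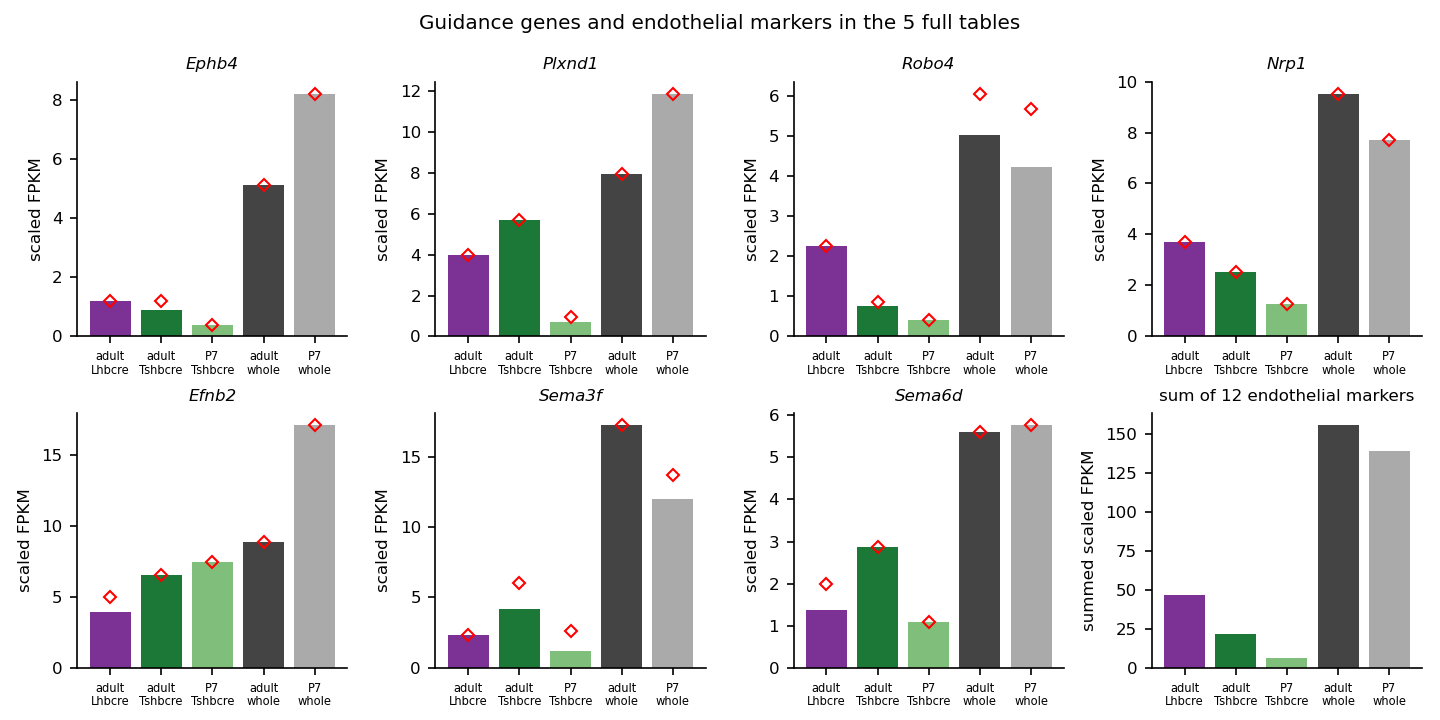
Scaled FPKM (vertical axes, each on its own scale) of 7 guidance genes and the sum of 12 endothelial markers in the 5 full tables; bars are annotated transcripts and red diamonds the level with assembled transcripts added. Each of the 7 genes is higher in both whole glands than in each sorted library, and the sorted library that is highest differs by gene, such as Lhbcre for Robo4 (2.26) and P7 Tshbcre for Efnb2 (7.46).

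The 250 bases before the start of Ephb4 (chr5:137349859-137350108, plus strand), Plxnd1 (chr6:115995006-115995255, minus strand) and Robo4 (chr9:37401722-37401971, plus strand), from RefSeq on GRCm38.p6, are shown because these receptors were low together in P7 Tshbcre. Capitals mark matches to GGGCGG or its reverse complement CCGCCC.
Ephb4: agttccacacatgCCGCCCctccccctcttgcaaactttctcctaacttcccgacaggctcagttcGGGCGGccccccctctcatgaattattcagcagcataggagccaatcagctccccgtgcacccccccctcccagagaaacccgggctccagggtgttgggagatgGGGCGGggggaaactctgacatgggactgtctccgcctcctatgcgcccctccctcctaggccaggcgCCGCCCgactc
Plxnd1: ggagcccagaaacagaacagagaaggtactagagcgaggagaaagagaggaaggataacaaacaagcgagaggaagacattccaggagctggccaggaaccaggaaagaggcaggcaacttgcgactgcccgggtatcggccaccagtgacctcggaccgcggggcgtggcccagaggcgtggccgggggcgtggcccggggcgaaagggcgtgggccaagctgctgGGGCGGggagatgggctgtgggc
Robo4: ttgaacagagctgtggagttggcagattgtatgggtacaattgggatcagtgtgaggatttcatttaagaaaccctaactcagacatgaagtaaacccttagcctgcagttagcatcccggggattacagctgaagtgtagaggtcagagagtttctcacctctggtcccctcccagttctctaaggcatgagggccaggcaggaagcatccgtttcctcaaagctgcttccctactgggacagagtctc
The windows differed in composition, with 64% G and C and 12 CpG for Ephb4, 64.8% and 16 for Plxnd1, and 49.6% and 2 for Robo4. The GC box letters occurred 4 times before Ephb4, 1 time before Plxnd1 and not before Robo4, and neither CACGTG nor CCGGAA occurred in these windows.

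Age was compared within whole glands and within Tshbcre cells, although age and the sex of the animals cannot be told apart there. In whole glands none of 58 genes was 4-fold apart, beside 6.59% of the 15690 genes compared, and the median of -0.073 lay near the -0.017 of all genes. At 2-fold, 1 gene was higher in the adult gland, beside 9.41% of all genes, and 5 were lower, beside 9.98%. Efnb3, a transmembrane ephrin known from the nervous system, differed most, at 0.742 in the adult against 5.63 at P7, although its locus overlaps Wrap53 in the P7 table. Plxna1, a receptor of class 3 and 6 semaphorins, stood at 2.22 in the adult against 6.12, and at 8.19 against 6.12 with assembled transcripts, which turns the direction. The other lower genes were the Eph receptors Epha3 (0.346 in the adult against 1.80), Epha4 (0.466 against 2.30) and Ephb3 (1.08 against 3.58). Epha5 was the 1 higher gene, at 2.13 against 0.265. With assembled transcripts Epha5 stood at 4.78 against 2.36 and Ephb3 at 2.03 against 4.48, both under 2-fold. These Epha genes were named after their values were seen. The sum of mesenchymal markers was 142 in the adult against 320 at P7, and its part was not tested.

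In Tshbcre cells Lrp8 alone was 4-fold apart between the ages, beside 8.21% of the 16029 genes compared. It stood at 6.09 in the adult and was listed at 0 at P7, and with assembled transcripts it stood at 9.21 in the adult against 19.2 at P7, the opposite direction. At 2-fold, 7 of 42 genes were higher in the adult, 16.7% beside 12.8% of all genes, and 3 lower, beside 11.5%. Of the 7, Plxnd1 (5.68 in the adult against 0.685), Unc5a (12.0 against 4.91) and Epha1 (2.21 against 0.558) were also 2-fold higher with assembled transcripts. Epha1 was then 4-fold higher in the adult, at 5.44 against 0.558, and no gene was 2-fold lower. Unc5a, a netrin receptor of the repulsive class, was among the most abundant of the 72 genes in each adult library, at 14.1 in Lhbcre, 12.0 in adult Tshbcre, 12.6 in Ghcre and 18.1 in the adult whole gland. Nrp2 was lower in the adult, at 2.86 against 7.48 at P7, and at 8.05 against 10.3 with assembled transcripts. Endothelial markers summed to 22.0 in the adult library against 6.60 at P7 and immune markers to 56.1 against 4.32. Stem and folliculostellate markers summed to 97.0 against 14.7, and Prl, the prolactin gene of lactotropes, stood at 6546 against 21.7. The part of these cell types was not tested. The median of the 42 genes was 0.34, beside -0.020 over all genes. With each library scaled to the same total it was -0.052, beside -0.36 over all genes.

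**Figure D5:**
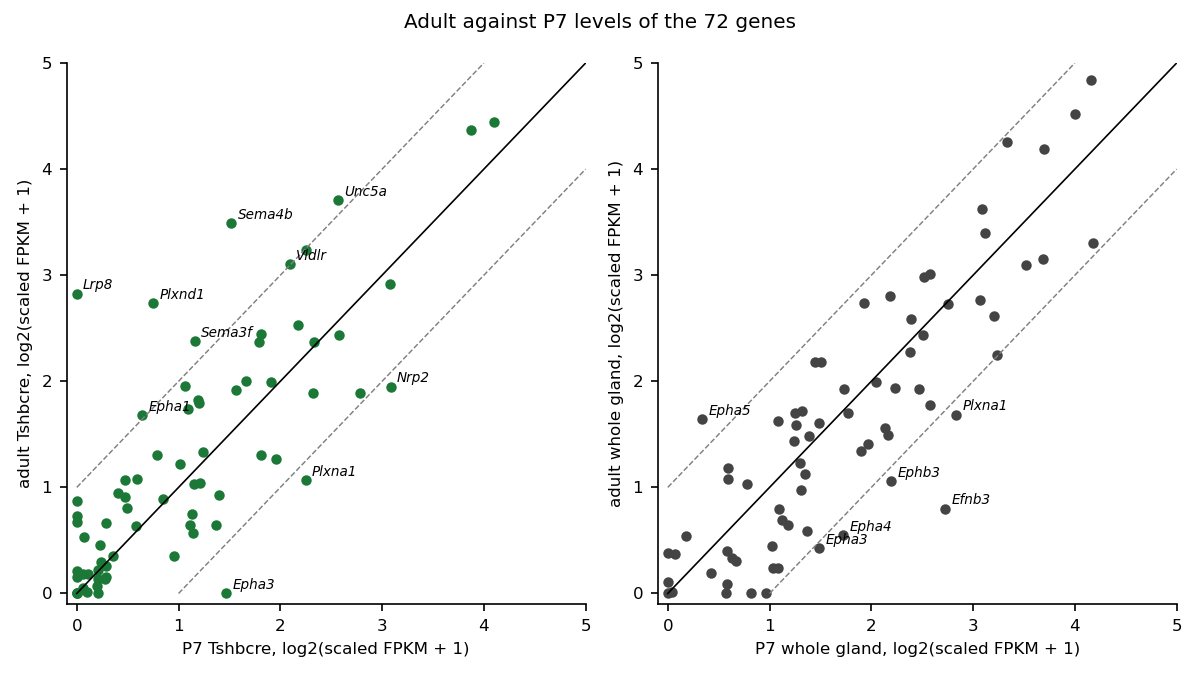
Adult level (vertical axis) against P7 level (horizontal axis) of the 72 genes, as log2(scaled FPKM + 1), in Tshbcre cells (left) and whole glands (right). The solid line marks equal levels and dashed lines 2-fold; labelled genes lie outside them and reach 1 scaled FPKM in the higher library. Lrp8 lies on the left edge of the Tshbcre panel because it is listed at 0 at P7, and Efnb3 lies farthest under the line in the whole glands, at 0.742 against 5.63.

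Lhbcre and adult Tshbcre cells differed in 1 of 43 genes at 4-fold, Reln, beside 9.3% of the 16310 genes compared. At 2-fold 4 genes were higher in Lhbcre, beside 14.2%, and 1 lower, beside 13.2%. Of these Reln, Epha6 and Ntn4, the last named after its values were seen, kept their call with assembled transcripts. None were added to these genes in either library, so this is no further check. Ntn4, a netrin of basement membranes, stood at 3.55 in Lhbcre against 1.12 in adult Tshbcre. With assembled transcripts 4 genes were 2-fold higher in Lhbcre and 8 lower, and Slit3 turned from higher to lower (1.77 in Lhbcre against 5.01). The median of the 43 genes was 0.041, beside 0.022 over all genes, and with assembled transcripts it was -0.28, beside -0.076.

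Among the ligands at 5 scaled FPKM or more, Efna1 ranged between 3.90 in Ghcre and 6.90 in the adult whole gland, and Efna5, which encodes an ephrin tethered by a lipid anchor, between 3.56 in the P7 whole gland and 6.0 in the adult whole gland. Neither was 2-fold apart in a comparison. Sema4b, described above for P7, stood at 7.20 in Lhbcre, 10.2 in adult Tshbcre, 1.87 in P7 Tshbcre, 7.55 in the adult whole and 10.5 in the P7 whole gland. Among receptors, Plxna3, which lies on the X chromosome and mediates class 3 semaphorin signals, stood at 5.69 in Lhbcre, 8.43 in adult Tshbcre, 3.78 in P7 Tshbcre, 11.3 in the adult whole and 7.49 in the P7 whole gland. With assembled transcripts Plxna3 stood at 8.09 in Lhbcre, 11.6 in adult Tshbcre and 15 in P7 Tshbcre, which moves P7 Tshbcre to the highest of these libraries. The slits and netrins stayed under 5 in every library on annotated transcripts. Slit1 was listed at 0 in Lhbcre and Slit3 at 0 in both Tshbcre libraries, and with assembled transcripts Slit1 stood at 6.98 in Lhbcre and Slit3 at 5.01 in adult Tshbcre and 3.06 in P7 Tshbcre.

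Co-receptors and effectors of the same pathways, a list of 55 genes, mostly stayed within 4-fold. In Lhbcre against the adult whole gland 1 of 48 was lower, beside 9.31% of all genes apart in either direction. This gene, Srgap3, a GTPase-activating protein of the slit and Robo pathway, stood at 1.96 against 21.8, with 17.4 in adult Tshbcre. In adult Tshbcre against the adult whole gland none of 48 was lower, beside 7.06% apart. Plxdc1, a plexin domain protein that was 4-fold higher, stood at 9.93 in adult Tshbcre against 1.38, and at 9.93 against 2.37 with assembled transcripts, under 4-fold. In Ghcre none of 34 was higher and 2 were lower, beside 9.8%, namely Farp2, listed at 0, and Ablim1, which at 0.578 against 4.12 was under 4-fold with assembled transcripts. In P7 Tshbcre none of 51 was higher and 6 were lower, a share near the 9.38% of all genes apart, and of the 6 only Dab2, an adaptor related to Dab1, and Chn2 held with assembled transcripts. Dab2 stood at 0.231 against 4.53 in the P7 whole gland. Met, the receptor that partners plexin-B1, stood at 0.0663 against 4.33, and assembled transcripts brought it to 0.474 against 4.33. Crmp1, an effector of Sema3a, and Nck1 were listed at 0 there and stood at 37.2 and 8.31 with assembled transcripts, against 15.6 and 4.01 in the P7 whole gland. Dcc, the netrin receptor, was at most 3.83 on annotated transcripts, in the P7 whole gland, and listed at 0 in Ghcre, where it stood at 7.19 with assembled ones.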

How the data were processed

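The deposited files are Cufflinks transcript tables, 1 per library, and Bowtie2, Cufflinks, FastQC and the build mm39 are named, without versions, in the submitters' processing notes. Each line gives the FPKM computed by the authors with its bounds and a coverage signal, which the authors deposited as a constant multiple of FPKM within a file and which was used as relative depth. Ribosomal RNA was depleted, per the labels' protocols, with 250 ng of input. The read number and whether strand was counted are not given in the sources used here. Overlapping genes therefore cannot be told apart (Epha6 and Gm4660, Efnb3 and Wrap53, Nrp1 and Mir1903, Sema3b and Lsmem2, Ntn3 and Tbc1d24, Sema4a and Mir7011).

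Gene values were sums over annotated transcripts. Each library was divided by the median of ratios over 5808 genes that reached 1 FPKM in each of the 6 libraries. Differences are of log2(value + 1), which understates those of low genes. A gene was called at 4-fold with the higher library at 1 or more. Alternatives were FPKM as deposited, scaling to an equal sum, a pseudocount of 0.1, no floor, genes above 0 in both libraries, assembled transcripts of 200 nt or more added (only where their locus held 1 named gene), and a 2-fold threshold chosen after seeing the data. Genes called apart, reaching 5 scaled FPKM in a library, or of the reelin pathway are named, and the others by counts unless said otherwise. The genes, lists and markers were chosen with earlier results of these data known. The calling code was tested on simulated data. Promoters came from the RefSeq table of GRCm38.p6, in which Sema3f had no entry, and the Reln exon from the GENCODE annotation of GRCm38. Python 3.11.15, pandas 2.3.3 and numpy 2.4.6 were used. Counts of co-receptors and effectors 4-fold higher in Lhbcre and adult Tshbcre are not reported here.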

Additional observations from a re-analysis of the deposited data

Results flagged for a closer look

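Lrp8, the gene of the reelin receptor ApoER2, differed in opposite directions between the ages. The log2 difference of Tshbcre cells from the whole gland was 1.3424 in the adult, with 6.09 scaled FPKM in Tshbcre cells against 1.80 in the gland, and -1.3879 at P7, where Lrp8 was listed at 0 in Tshbcre cells against 1.62 in the gland. With 1 library per group the difference was not tested. With assembled transcripts added, Tshbcre cells stood higher at both ages, at 9.21 against 3.52 in the adult and 19.2 against 4.03 at P7.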

How the results depend on the processing

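Counts of members 4-fold apart were 2 for Lhbcre against the adult whole gland, 0 for adult Tshbcre, 1 for Ghcre and 4 for P7 Tshbcre against their whole glands, 0 for adult against P7 whole glands, 1 for adult against P7 Tshbcre, and 1 for Lhbcre against adult Tshbcre. In that order they were 7, 6, 9, 18, 6, 4 and 5 with a pseudocount of 0.1, and 12, 9, 12, 22, 6, 10 and 5 at 2-fold, a threshold chosen after seeing the data. With FPKM as deposited they were 3 for Lhbcre against the adult whole gland and 13 for P7 Tshbcre against the P7 whole gland. They were then 1 for adult against P7 whole glands and 2 for adult against P7 Tshbcre. For Ghcre the count stayed at 1, but as 1 lower gene, and Reln lost its call. Over genes above 0 in both libraries adult against P7 Tshbcre had 0 and P7 Tshbcre against the P7 whole gland had 3. The latter had 6 with assembled transcripts added. Lrp8 between adult and P7 Tshbcre changed direction with assembled transcripts added, to -0.9854, and Ephb3 at P7 moved to -1.38. Reln in Ghcre was 1.73 with FPKM as deposited. The cause was not tested. Scaling to an equal sum shifted the median of all genes to 0.38 for Lhbcre and 1.11 for Ghcre against the adult whole gland, and there the member medians became 0.099 and 0.12. Reln in Lhbcre kept its direction and its 4-fold call in each alternative, as did Sema3f in Lhbcre and Sema3f, Plxnd1 and Ephb4 in P7 Tshbcre. Some alternatives could not change these values. No assembled transcripts were added to Reln or Sema3f in Lhbcre and the adult whole gland, nor to Ephb4 at P7. Dropping the floor, or keeping only genes above 0 in both libraries, leaves a gene's own value as it was. An unchanged call in these cases is no further check. The share of higher genes among all those called was 45.3% for Ghcre, 35.4% with FPKM as deposited and 79.3% with an equal sum; for Lhbcre against the whole gland it was 41.3% and 52.6% with an equal sum; for P7 Tshbcre 34.8% and 24.6% as deposited, and 46.0% with assembled transcripts added. No paired analysis was possible because each group has 1 library and no result comes from a test. Leaving out a library leaves no comparison. In every library that listed them 10 members stayed under 1 scaled FPKM, and the part of depth in this was not tested.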
